A study of Mus musculus with 6 samples.

Results

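The matrix metalloproteinases (MMP), the ADAMTS proteases with their ADAMTS-like relatives, and the tissue inhibitors of metalloproteinases (TIMP) were examined in murine aortic valves taken on postnatal day 2 (PND2) or from adults of 4 months. The members were all protein-coding genes of the deposited gene table whose symbol begins with Mmp and a digit or with Adamts, or is Timp1 to Timp4, which gave 51 of 46983 genes: 23 MMP, 19 ADAMTS, 5 ADAMTS-like and 4 TIMP genes. Whole aortic valves were taken from wild type C57BL/6J mice with no treatment at either age, and 3 RNA-sequencing libraries were made per age. Each library was a pool of valves from 5 to 6 mice, so the spread between libraries is a spread between pools. Values are RPKM, reads scaled by exon length and library total, which is a level per length and can be compared between genes. Library totals, inferred from the RPKM values, ranged from 23810507 to 38994657 reads.

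MMPs are zinc-dependent proteases that are made as inactive zymogens and cleave collagens, elastin and other matrix proteins once their propeptide is removed. The collagenases cut native fibrillar collagen, the gelatinases degrade its denatured chains and basement membrane collagen, the stromelysins cleave a broad range of matrix proteins, and the membrane-type members act at the cell surface, where MMP14 activates MMP2. ADAMTS proteases carry thrombospondin repeats that bind them to the matrix. Some of them cleave the proteoglycans aggrecan and versican, some trim the amino-terminal propeptide of procollagens, and the ADAMTS-like proteins keep the matrix-binding domains without the protease. TIMPs block the active site of MMPs, and TIMP3 also blocks several ADAMTS and ADAM proteases. Valve leaflets thin, elongate and sort collagen, proteoglycan and elastin into layers after birth, and these families are the main secreted enzymes and inhibitors acting on those components.

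The 4 month old valves had far more Mmp3 and Timp3 transcript than PND2 valves and far less Mmp14, Mmp15 and Adamts12. Of the 51 genes, 45 passed a filter of 0.1 RPKM in 3 libraries and were tested with limma on log2(RPKM + 0.1). Taking an adjusted p below 0.05 together with more than a 2-fold change as a call, 22 genes were called, 10 higher and 12 lower at 4 months. Among all 25903 genes tested the same rule called 17.2% in either direction, 8.72% higher and 8.47% lower, and among protein-coding genes it called 19.7%. Without the fold limit 30 of the 45 genes passed, where 35.8% of all genes and 42.2% of protein-coding genes did. Between the PND2 and the adult libraries 32 of the 45 had no overlap, as had 50% of all genes and 57.8% of protein-coding genes. The median log2 fold change was -0.11 over the 45 genes and -0.14 over all genes. The calls were split by family: 7 MMPs were called higher and 5 lower, while no ADAMTS protease was called higher and 7 were called lower. Of the ADAMTS-like genes 2 were called higher and none lower, and 1 TIMP was called higher and none lower. Without the fold limit 2 ADAMTS proteases were higher and 10 lower, and 2 TIMPs were higher and none lower. In counts of genes, rose and fell stand for such calls. Mmp10 is counted among the 7 MMPs called higher, but its reads lay only on exons largely shared with Mmp3, so its call is uncertain. Of the called genes, 18 were above the filter in all 6 libraries. Mmp8, Mmp10, Mmp12 and Mmp27 passed it in all libraries of 1 age only, so that a difference was built into their selection. With 3 libraries per age, an exact permutation test of a single gene cannot go below p = 0.1, so the adjusted p-values rest on limma's model across all genes. An unequal-variance test for each gene alone, the kind the study used, called 7.84% of all genes and 11 of the 22 members, 5 higher (Mmp3, Mmp10, Mmp12, Timp3 and Adamtsl5) and 6 lower (Mmp14, Mmp15, Adamts9, Adamts12, Adamts17 and Adamts20).

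**Figure D1:**
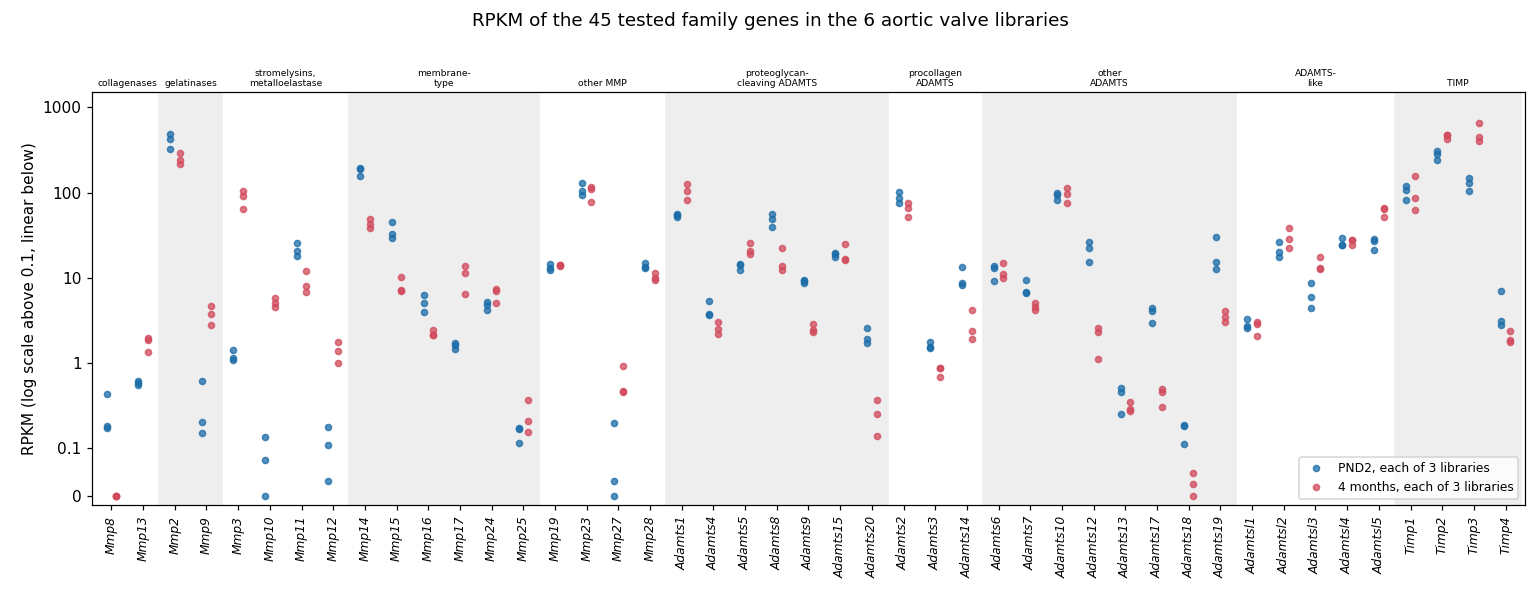
RPKM of the 45 tested MMP, ADAMTS and TIMP genes by functional group, on an axis that is logarithmic above 0.1 and linear below; each point is 1 library, blue for PND2 and red for 4 months. Mmp3 moves from 1.22 to 86.1 RPKM on average, while Timp1, Mmp23, Adamts10 and Adamts15 have overlapping points.

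The tissue label was checked against marker genes of the cells a valve dissection can hold. All 10 interstitial cell and fibroblast markers were detected, and their summed RPKM was 6671 to 7344 at PND2 and 8126 to 10243 at 4 months. Of these, Dcn and Lum rose, Tbx20 fell, and 5 of the 10 had lower values at 4 months. Cardiomyocyte markers were also high, at 13457 to 16574 and 5415 to 8847 summed RPKM. Markers of other cells moved with age. Of the smooth muscle genes, 7 of 8 rose, from a sum of 7441 to 8604 RPKM to one of 16893 to 27955 RPKM, and of the macrophage genes 7 of 9 rose. Of the adipocyte genes, 6 of 8 rose, from 63.8 to 147 RPKM to 343 to 1430 RPKM, with Cidec, Lep and Retn at 0 at PND2. Of the endothelial genes, 5 of 8 fell, from 491 to 693 RPKM to 265 to 292 RPKM, and of the proliferation genes all 8 fell, from 43.8 to 82.0 RPKM to 6.19 to 7.09 RPKM. Of the 8 chondrocyte genes, Chad and Comp rose and Acan and Col9a1 fell. The sum of that list was 121 to 222 RPKM at PND2 and 315 to 1075 RPKM at 4 months, highest in the third adult library. The part of these cell types in the results for the proteases and inhibitors was not tested. In bulk tissue, fewer cells of a type and less RNA per cell cannot be told apart.

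A cluster of 10 MMP genes on chromosome 9 holds the collagenases Mmp1a, Mmp1b, Mmp8 and Mmp13, the stromelysins Mmp3 and Mmp10, the metalloelastase Mmp12, and Mmp7, Mmp20 and Mmp27 (mm10, chr9:7272514-7699585). Its summed RPKM was 2.32 ± 0.339 at PND2 and 95 ± 20.5 at 4 months (SD, n = 3). Most of this was Mmp3, without which the sum was 1.10 ± 0.400 and 8.88 ± 0.562 RPKM, and more than 5 RPKM of the latter was Mmp10, whose value is uncertain. Of its genes, 6 had more than 3 reads in any library, and of these Mmp3, Mmp12, Mmp13 and Mmp27 rose and Mmp8 fell. Mmp10 was also called higher, but its reads lay only on exons whose sequence is largely shared with Mmp3. Mmp1b, Mmp7 and Mmp20 had no read in any library, and Mmp1a had 1 read in 1 library, where a count of 0 allows up to 3 reads. Most promoters of the cluster also hold a short sequence in common. TGACTCA, the binding motif of AP-1, searched on both strands in the window from 250 bases before to 50 bases after each RefSeq gene start (GRCm38.p6), was found for 7 of the 10 cluster genes. It was found for none of the 26 members outside the cluster that have a window, and in 5.2% of all 32851 windows. No window was given for the other 15 members, all outside the cluster. Mmp2, Mmp9 and Mmp17 are among them and were not searched. Of the sequences, 4 are shown because they place the motif beside a gene that rose, in Mmp3, Mmp12 and Mmp13, and beside Mmp1a, which was almost silent. Each is the 100 bases before the gene start, 5′ to 3′ on the gene's strand, with the motif or its reverse complement TGAGTCA in capitals.
Mmp3, chr9:7445722-7445821, plus strand: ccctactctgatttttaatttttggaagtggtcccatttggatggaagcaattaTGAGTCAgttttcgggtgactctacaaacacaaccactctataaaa
Mmp12, chr9:7347274-7347373, plus strand: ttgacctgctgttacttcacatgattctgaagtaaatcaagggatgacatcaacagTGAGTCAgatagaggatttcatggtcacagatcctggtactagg
Mmp13, chr9:7272414-7272513, plus strand: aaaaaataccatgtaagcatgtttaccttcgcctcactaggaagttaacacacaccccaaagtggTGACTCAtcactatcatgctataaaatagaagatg
Mmp1a, chr9:7464041-7464140, plus strand: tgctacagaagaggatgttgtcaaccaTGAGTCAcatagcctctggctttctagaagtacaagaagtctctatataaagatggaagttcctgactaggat
The match began 46 bases before the start in Mmp3, 44 in Mmp12 (the downstream of its 2 annotated starts), 35 in Mmp13 and 73 in Mmp1a. Mmp10, Mmp1b and Mmp7 also held it, whereas Mmp8, Mmp20 and Mmp27 did not. The cluster genes with the motif thus included genes that rose and genes without reads. The sequence TATAAA, searched on both strands anywhere in the same windows, was found for 9 of the 10 cluster genes. It was found for 3 of the 26 other members and in 13.6% of all windows. Its strand and its distance from the start were not considered. Mmp7, Mmp12 and Mmp23 have 2 windows each, and a gene was counted if either held the motif.

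Mmp3, which encodes stromelysin-1, showed the largest log2 fold change of the 45 genes. It was at 1.10, 1.15 and 1.41 RPKM in the PND2 libraries and at 90.8, 64.2 and 103 RPKM in the 4 month libraries. The lowest adult value was far above the highest postnatal one, and the log2 fold change was 6.01 ± 0.20 (SE, limma adjusted p = 1.2e-05). All 10 of its exons were higher in every 4 month library. Its share of the summed MMP RPKM was 0.154% ± 0.0248 at PND2 and 15.3% ± 1.96 at 4 months, by which it ranked 11th among the MMPs at PND2 and 3rd at 4 months.

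Mmp10, the gene of stromelysin-2 in the same cluster, was listed at 0.134, 0.0762 and 0 RPKM at PND2 and at 4.61, 5.03 and 5.81 RPKM at 4 months. The log2 fold change was 5.03 ± 0.37 (limma adjusted p = 0.00014), but the value does not describe the whole gene. Exon 2 had 10.4, 11 and 14.5 RPKM and exon 3 had 36.1, 40.0 and 43.1 RPKM at 4 months, and the other 8 exons had no read in any of the 6 libraries. Mmp3 had reads on all 10 exons in every 4 month library. Exon 3 of both genes is shown because it carries most of the Mmp10 signal (GENCODE transcripts on mm10, bases that differ in capitals).
Mmp3 exon 3, chr9:7447268-7447416, plus strand: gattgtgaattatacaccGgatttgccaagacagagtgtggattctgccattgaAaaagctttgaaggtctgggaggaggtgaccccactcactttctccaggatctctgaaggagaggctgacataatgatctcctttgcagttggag
Mmp10 exon 3, chr9:7503481-7503629, plus strand: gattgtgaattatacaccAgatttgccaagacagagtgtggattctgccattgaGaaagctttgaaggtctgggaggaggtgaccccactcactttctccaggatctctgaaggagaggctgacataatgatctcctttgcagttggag
The 149 bases differed at 2 positions, and the longest identical run was 94 bases. In exon 2 the genes differed at 19 of 245 positions with an identical run of 86 bases, while in the other exons no run exceeded 23 bases. The first reads were 47 bases long after trimming, so a read inside these runs fits Mmp3 and Mmp10 alike unless its mate separates them. How the counting treated such reads was not stated, and the Mmp10 call is uncertain. Without it 9 of 44 genes were called higher.

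**Figure D2:**
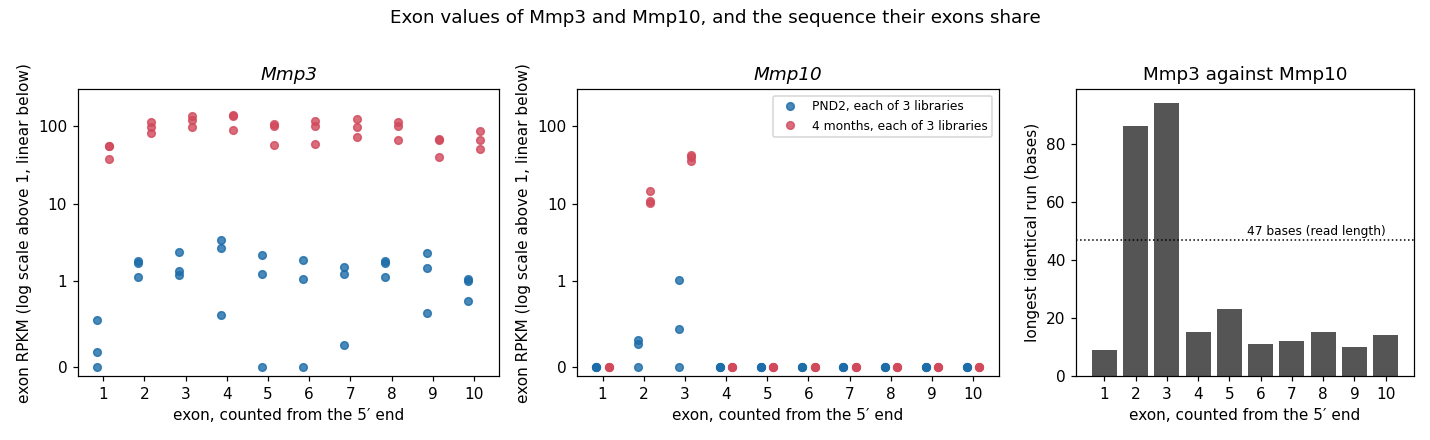
Exon RPKM of Mmp3 and Mmp10 in each library (axis logarithmic above 1, linear below), and the longest run of identical bases between the matching exons. Mmp10 has reads on exons 2 and 3 only, and these are the exons with identical runs of 86 and 94 bases, above the read length of 47 bases.

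Mmp12, the macrophage metalloelastase, was at 0.177, 0.0317 and 0.109 RPKM at PND2 and at 1.77, 1.39 and 0.993 RPKM at 4 months (log2 fold change 2.88 ± 0.40, limma adjusted p = 0.0018). Mmp13, the main rodent collagenase, was at 0.623, 0.551 and 0.588 RPKM and at 1.87, 1.33 and 1.95 RPKM (1.39 ± 0.26, adjusted p = 0.0062). Both had no overlap between ages but stayed below 2 RPKM, and their reads were spread along the gene, with a mean of at least 1 RPKM at either age on 19 of 25 Mmp12 exons and 9 of 10 Mmp13 exons. Mmp27, a little-studied member, rested on at most 77 reads in a library and averaged 0.0761 and 0.620 RPKM (2.13 ± 0.51, adjusted p = 0.017). Its adjusted p was 0.054 without the third PND2 library and 0.055 without the first 4 month library. Mmp8, the neutrophil collagenase, averaged 0.261 RPKM at PND2 from 13 to 41 reads and had no read at 4 months, which made it at least 6.20-fold lower with 3 reads per library as the floor. Without any 1 of the PND2 libraries it did not pass the filter, and with values of up to 10 reads raised to a floor of 10 reads it was not called (log2 fold change -0.56, limma adjusted p = 0.21). The neutrophil marker list moved with it: 6 of 8 genes fell and the summed RPKM was 27.0 to 33.2 at PND2 and 0.588 to 1.57 at 4 months. Macrophage markers, at 360 to 412 and 1113 to 1230 summed RPKM, moved with Mmp12. Their part in either change was not tested. Mmp11, stromelysin-3, lies on chromosome 10 and fell from 18, 25.5 and 20.5 RPKM to 12.1, 6.81 and 8.03 RPKM, without overlap (-1.27 ± 0.23, adjusted p = 0.0055).

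Of the gelatinases, Mmp9 rose from a low level and Mmp2 was lower at 4 months by less than 2-fold. Mmp2 was the most abundant MMP at both ages, with 324, 487 and 421 RPKM at PND2 and 216, 243 and 296 RPKM at 4 months. Its values did not overlap, and the log2 fold change of -0.70 ± 0.18 passed the p threshold (limma adjusted p = 0.022) but not the fold limit. Mmp9 was at 0.152, 0.204 and 0.608 RPKM at PND2 and rose to 4.71, 3.75 and 2.82 RPKM (3.32 ± 0.43, adjusted p = 0.0015). Of its 18 exons, 16 reached a mean of 1 RPKM, but its level stayed far below that of Mmp2.

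Of the 6 membrane-type MMPs, 3 fell, 1 rose and 2 were not called, and their summed RPKM was 228 ± 28.4 at PND2 and 71.1 ± 9.03 at 4 months. Mmp14, the cell-surface activator of MMP2, was at 156, 196 and 189 RPKM and then at 49.3, 38.2 and 42.8 RPKM. The highest adult value was well below the lowest postnatal one, and the log2 fold change was -2.05 ± 0.13 (limma adjusted p = 9.0e-05). Mmp15, a related transmembrane MMP, was at 29.6, 32.4 and 45.8 RPKM and then at 7.13, 10.3 and 7.10 RPKM (-2.12 ± 0.21, adjusted p = 0.00048), with 10 of 10 exons lower. Mmp16 was at 3.93, 6.23 and 5.05 RPKM and then at 2.46, 2.14 and 2.12 RPKM (-1.12 ± 0.21, adjusted p = 0.0066), and without the second PND2 library its change was under 2-fold (-0.96, adjusted p = 0.024). Mmp17, which is held by a lipid anchor in place of a transmembrane segment, went the other way. It was at 1.45, 1.62 and 1.70 RPKM at PND2 and at 13.8, 6.52 and 11.3 RPKM at 4 months, with no overlap and 12 of 12 exons higher (2.59 ± 0.28, adjusted p = 0.00067).

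The other 2 membrane-type genes gave little. Mmp25 reached at most 0.365 RPKM in a library. Mmp24 was listed at 4.71 ± 0.507 and 6.53 ± 1.26 RPKM, yet its last exon, which shares bases with BC029722 on the opposite strand, held 8.20 and 11.4 RPKM on average while none of the other 10 exons exceeded 1.40 RPKM in any library. The kit keeps the strand, but whether the counting used it was not stated, so the Mmp24 value is uncertain. Among the remaining MMPs, Mmp23 ranked 3rd at PND2 and 2nd at 4 months, at 93.0, 129 and 105 RPKM and then 116, 78.4 and 111 RPKM, with overlapping values (log2 fold change -0.11 ± 0.18, limma adjusted p = 0.68). Mmp28 was at 13.6, 13 and 15 RPKM and then at 11.3, 10.1 and 9.32 RPKM, which passed the p threshold but not the fold limit (-0.43 ± 0.12, adjusted p = 0.031). Mmp19 was at 13, 14.5 and 12.4 RPKM and then at 14.2, 13.6 and 14.1 RPKM. Its last exon overlaps Tmem198b and was level at 17.5 ± 0.573 and 16.7 ± 0.813 RPKM, while the median of its other 8 exons was 6.53 ± 2.29 and 10.3 ± 1.26 RPKM, and 4 of those 8 were higher in all adult libraries. Mmp21 had at most 3 reads in a library.

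**Figure D3:**
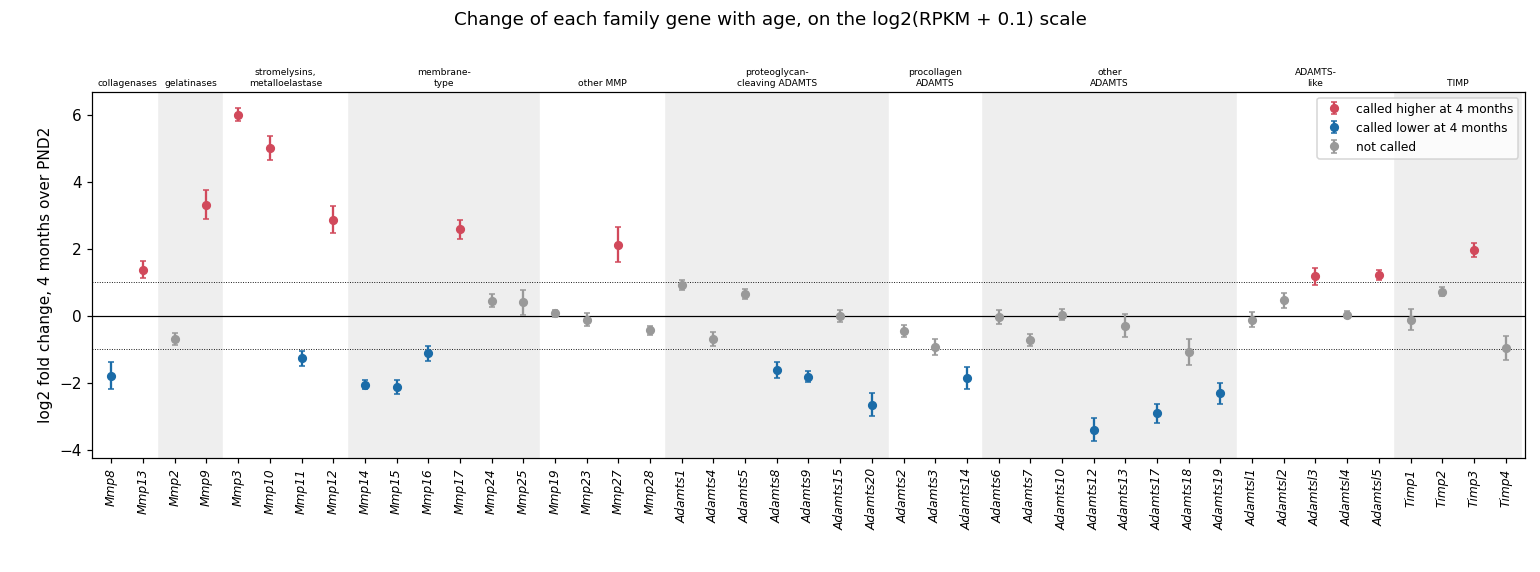
Log2 fold change of each tested gene from PND2 to 4 months with its standard error from limma, grouped by function; dotted lines mark a change of 2-fold and colours mark the calls. The 7 called ADAMTS proteases are all below 0, the called MMPs lie on both sides, and Mmp3 is the highest at 6.01.

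Of the 7 ADAMTS proteases grouped as proteoglycan-cleaving, 3 fell and none was called higher, and their summed RPKM was 150 ± 8.42 and 167 ± 19.4. Adamts8 was at 56.2, 49.5 and 40.0 RPKM at PND2 and at 12.4, 14 and 22.5 RPKM at 4 months, with all 11 exons lower (-1.61 ± 0.24, limma adjusted p = 0.0023). Adamts9, which acts on versican, was at 8.73, 9.13 and 9.49 RPKM and then at 2.31, 2.84 and 2.45 RPKM (-1.81 ± 0.15, adjusted p = 0.00024), and 47 of 47 exons were lower. Adamts20, its close relative, was at 1.90, 2.60 and 1.71 RPKM and then at 0.140, 0.373 and 0.250 RPKM (-2.65 ± 0.35, adjusted p = 0.0015). The aggrecanases and versicanases with the higher adult levels did not reach the 2-fold limit. Adamts1 was at 55.4, 54.9 and 51.7 RPKM and then at 81.8, 105 and 125 RPKM, without overlap (0.92 ± 0.15, adjusted p = 0.0037), and without the first 4 month library it passed the fold limit (1.09, adjusted p = 0.0016). Its share of the summed ADAMTS RPKM was 13.4% ± 1.34 and 29.7% ± 6.56. Adamts5, the main aggrecanase of mouse cartilage, was at 14.2, 12.2 and 14.4 RPKM and then at 25.3, 20.5 and 19.1 RPKM (0.66 ± 0.14, adjusted p = 0.0098). Adamts15 overlapped between ages at 19.1, 17.5 and 19.8 RPKM and 25.2, 16.5 and 16.2 RPKM, and Adamts4 was at 4.26 ± 0.926 and 2.59 ± 0.440 RPKM (-0.69 ± 0.22, adjusted p = 0.048).

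The procollagen N-propeptidases are Adamts2, Adamts3 and Adamts14. Adamts14 fell, from 8.16, 13.6 and 8.77 RPKM to 4.20, 1.92 and 2.36 RPKM (-1.85 ± 0.32, limma adjusted p = 0.0046). Adamts3 averaged 1.61 ± 0.130 and 0.808 ± 0.110 RPKM and missed the fold limit (-0.92 ± 0.24, adjusted p = 0.022). Adamts2, the most abundant of the 3, was at 74.8, 103 and 86.8 RPKM and then at 75.4, 52.2 and 66.5 RPKM, which overlapped (-0.45 ± 0.17, adjusted p = 0.076). This gene value joined parts that differed. The last exon of Adamts2 (mm10, chr11:50803569-50807573, plus strand), of which 88.5% lies after the stop codon in the GENCODE annotation, was at 103, 129 and 107 RPKM at PND2 and at 58.6, 42.6 and 49.3 RPKM at 4 months. The median of the other 25 exons above 1 RPKM was 79.6, 145 and 121 RPKM at PND2 and 160, 106 and 137 RPKM at 4 months. The 25 upstream exons each overlapped between ages, whereas the last exon did not. In each library taken alone, the last exon over that median was 1.30, 0.891 and 0.884 at PND2 and 0.366, 0.403 and 0.359 at 4 months. No other gene of the table shares bases with this exon, and the exon values are given as a description with no test.

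**Figure D4:**
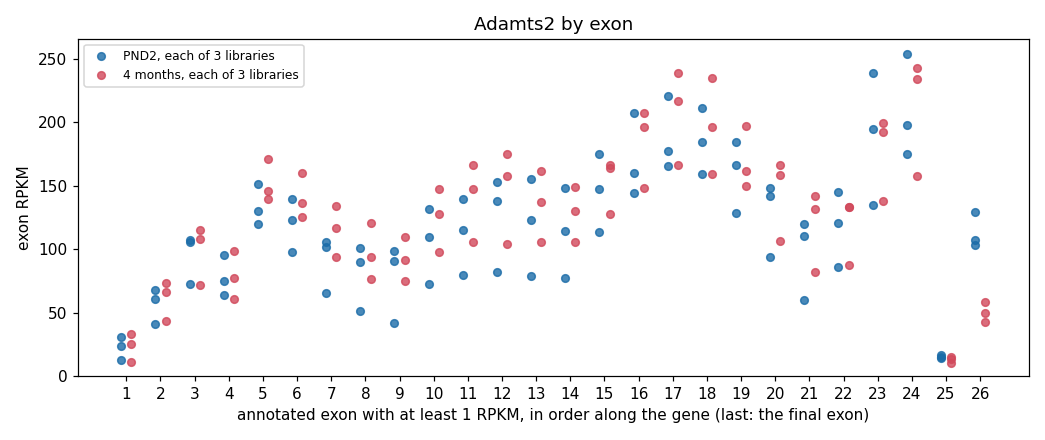
RPKM of the 26 Adamts2 exons with at least 1 RPKM, in order along the gene; each point is 1 library. The points of PND2 and 4 months overlap at every exon except the last, which averages 113 RPKM at PND2 and 50.2 RPKM at 4 months.

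Of the 9 other ADAMTS genes, 8 were tested and 3 fell. Adamts12, which can cleave cartilage oligomeric matrix protein, was at 15.3, 26 and 22.5 RPKM at PND2 and at 2.34, 2.55 and 1.10 RPKM at 4 months. Its mean was 10.7-fold lower, the groups were far apart, and 23 of 24 exons were lower (-3.40 ± 0.34, limma adjusted p = 0.00047). Adamts19, whose loss is known to cause heart valve disease, was at 12.6, 29.8 and 15.2 RPKM and then at 4.10, 3.46 and 3.06 RPKM (-2.31 ± 0.31, adjusted p = 0.0017). Adamts17, linked to fibrillin microfibrils, was at 2.92, 4.38 and 4.09 RPKM and then at 0.493, 0.454 and 0.306 RPKM (-2.91 ± 0.28, adjusted p = 0.00040). Adamts10, another fibrillin-linked member, overlapped between ages at 82.9, 99.5 and 92.8 RPKM and 113, 76.5 and 96.3 RPKM (0.04 ± 0.15, adjusted p = 0.86). Adamts6 was at 9.19, 13.8 and 13.1 RPKM and then at 14.8, 11 and 9.83 RPKM. Adamts7 averaged 7.67 ± 1.53 and 4.57 ± 0.416 RPKM (-0.72 ± 0.18, adjusted p = 0.019). Adamts13, Adamts16 and Adamts18 stayed below 1 RPKM in all libraries.

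The ADAMTS-like genes summed to 82.5 ± 10.9 RPKM at PND2 and 134 ± 15.6 RPKM at 4 months. Adamtsl5 was at 21.3, 27.4 and 29.0 RPKM and then at 66.0, 51.6 and 64.1 RPKM, without overlap (1.23 ± 0.15, limma adjusted p = 0.0011). Adamtsl3 was at 4.45, 8.82 and 5.99 RPKM and then at 12.6, 13.1 and 17.4 RPKM (1.19 ± 0.26, adjusted p = 0.011), but without the first PND2 library the change was under 2-fold (0.96, adjusted p = 0.020). Adamtsl4, which binds fibrillin, overlapped at 24.6, 29.1 and 24.3 RPKM and 27.5, 24.6 and 28.0 RPKM. Adamtsl2, a fibrillin partner that limits transforming growth factor beta signalling, was at 20.0, 26.4 and 17.6 RPKM and then at 22.6, 28.5 and 38.2 RPKM (0.47 ± 0.22, adjusted p = 0.14). Adamtsl1 averaged 2.88 and 2.69 RPKM.

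Among the inhibitors, Timp3, the TIMP that is bound to the matrix, was at 130, 147 and 105 RPKM at PND2 and at 400, 447 and 660 RPKM at 4 months. All adult values were more than 2-fold above all postnatal ones (1.96 ± 0.21, limma adjusted p = 0.00063). The last exon of Timp3 is shared with Syn3 on the opposite strand, but 7 of the 9 exons that share no bases with another gene were also higher, with a median of 120 ± 25.8 RPKM at PND2 and 455 ± 135 RPKM at 4 months over the 9 exons other than the last. Both remaining exons, among them the alternative early exon chr10:86303835-86306781, were lower, the latter at 2.47 ± 1.51 and 0.540 ± 0.146 RPKM. Timp2, which besides inhibiting MMPs takes part in MMP2 activation by MMP14, was at 242, 309 and 283 RPKM and then at 480, 422 and 477 RPKM, below the fold limit (0.73 ± 0.12, adjusted p = 0.0042). Timp1 was at 120, 106 and 82.6 RPKM and then at 87.0, 62.1 and 155 RPKM, so that the adult libraries spanned the postnatal range (-0.11 ± 0.32, adjusted p = 0.82). Timp4 was at 6.98, 2.81 and 3.12 RPKM and then at 2.36, 1.88 and 1.75 RPKM (-0.96 ± 0.35, adjusted p = 0.073), and its first PND2 library was more than 2-fold above the others. Its last exon, 4592 bases long, averaged 3.46 ± 1.65 and 1.77 ± 0.323 RPKM. The median of its other 6 exons was 24.2, 7.76 and 7.30 RPKM and then 4.29, 4.75 and 5.32 RPKM. Of its 7 exons, 1 shares bases with Syn2, and 4 of the 6 free of other genes were lower in all adult libraries. These exon values were not tested.

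In transcript sums, the MMPs were lower and the TIMPs higher at 4 months. The 23 MMPs summed to 659, 912 and 824 RPKM at PND2 and 554, 491 and 624 RPKM at 4 months, and the 4 TIMPs to 499, 566 and 474 RPKM and then 970, 933 and 1294 RPKM. The ratio of TIMP to MMP RPKM was 0.757, 0.620 and 0.576 at PND2 and 1.75, 1.90 and 2.07 at 4 months (0.651 ± 0.0943 and 1.91 ± 0.162). The groups did not overlap. The ratio is a description of transcript levels with no test, and says nothing of protein or activity. Without Timp2 it was 0.301 and 1.08, and without Mmp2 1.33 and 3.52. Mmp2 and Mmp14 together made up 73.9% ± 1.04 of the MMP RPKM at PND2 and 53.1% ± 4.84 at 4 months, and Timp3 made up 24.7% ± 2.18 and 46.7% ± 5.01 of the TIMP RPKM. The ADAMTS proteases summed to 407 ± 39.7 and 353 ± 32.1 RPKM.

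**Figure D5:**
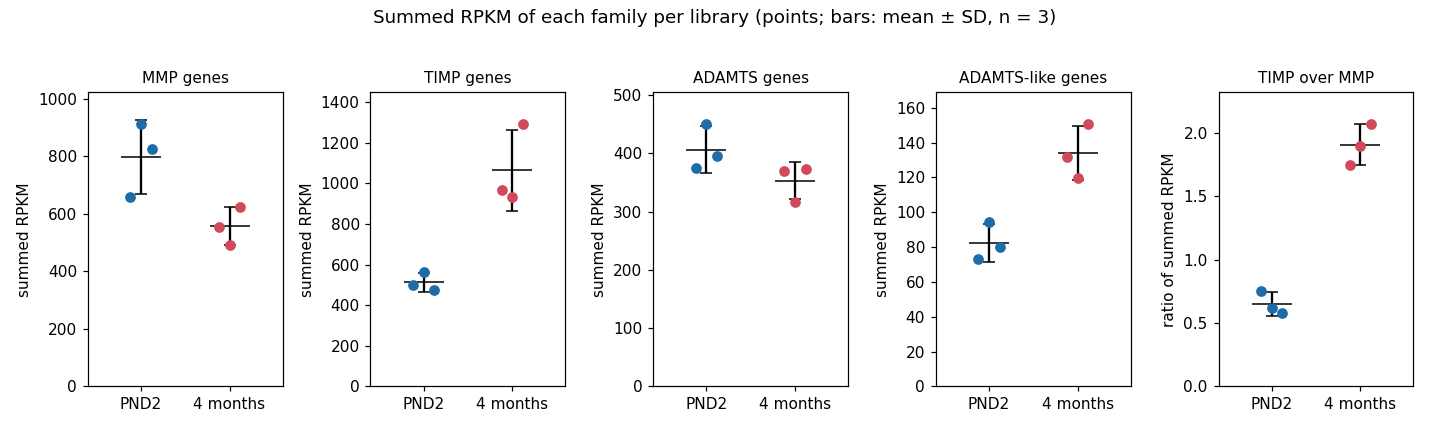
Summed RPKM of the 23 MMP, 4 TIMP, 19 ADAMTS and 5 ADAMTS-like genes, and the TIMP to MMP ratio, in each library (points) with mean ± SD (n = 3). The MMP points lie lower and the TIMP points higher at 4 months without overlap, and the ratio is 0.651 at PND2 and 1.91 at 4 months.

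Among 54 genes that work with these families, 52 were tested, 10 rose and 10 fell, with a median log2 fold change of -0.13, beside 8.72% higher and 8.47% lower calls and a median of -0.14 over all genes. Of the 11 zymogen activators, 10 were tested, none was called higher and 2 were called lower, which is 20% called beside 17.2% of all genes. Without the fold limit 7 of the 10 passed, 2 higher and 5 lower, where 35.8% of all genes passed. The 2 called activators are mast cell proteases: Cma1 averaged 36.2 ± 5.51 and 13 ± 3.17 RPKM (-1.49 ± 0.19, limma adjusted p = 0.0013) and Tpsb2 53.5 ± 12.6 and 13.1 ± 0.930 RPKM (-2.0 ± 0.18, adjusted p = 0.00033). Both are also in the list of mast cell markers and carry much of its sum, which was 120 to 172 RPKM at PND2 and 55.9 to 72.8 RPKM at 4 months. Of the 7 markers 4 fell, Cpa3 and Kit being the others, while Mcpt4, Fcer1a and Ms4a2 overlapped between ages. Of 9 surface partners and clearance receptors, 3 rose and 1 fell. Lrp1, the endocytic receptor that clears MMPs and their inhibitor complexes, averaged 55.7 ± 11.7 and 177 ± 16.1 RPKM (1.68 ± 0.16, adjusted p = 0.00040), Sdc4 averaged 48.9 and 99.2 RPKM, and of the collagen receptors Ddr2 averaged 21.0 and 56.0 RPKM while Ddr1 averaged 70.1 and 29.9 RPKM.

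Another list of 12 genes holds protease inhibitors outside the TIMP family and the procollagen C-proteinase enhancers Pcolce and Pcolce2. Of these, 11 were tested, 4 rose and 1 fell. Serpine2, an inhibitor of thrombin and plasminogen activators, averaged 16.8 ± 3.00 and 102 ± 13.2 RPKM (2.60 ± 0.16, limma adjusted p = 6.4e-05), and the enhancer Pcolce2 averaged 11.1 ± 0.689 and 48.7 ± 2.86 RPKM. Tfpi2 fell from 5.97 ± 0.597 to 1.20 ± 0.237 RPKM. Of the 12 ADAMTS substrates, 2 rose and 4 fell. Vcan, the versican gene, averaged 111 ± 23.0 and 37.6 ± 3.92 RPKM (-1.55 ± 0.16, adjusted p = 0.00054), Acan, the aggrecan gene, 81.4 ± 41.0 and 11.6 ± 4.64 RPKM, Fbn1 220 ± 35.1 and 101 ± 1.47 RPKM, and Fbn2 102 ± 24.1 and 0.926 ± 0.807 RPKM (-6.92 ± 0.54, adjusted p = 0.00019). Comp averaged 10.6 ± 3.26 and 377 ± 239 RPKM (4.99 ± 0.45, adjusted p = 0.00033) and Bcan 0.403 and 5.28 RPKM. Among 10 ADAM proteases, 1 rose and 2 fell: Adam33 averaged 11 ± 1.52 and 30.7 ± 11.2 RPKM and Adam19 40.7 ± 9.93 and 14.5 ± 2.71 RPKM.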

How the data were processed

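Aortic valves of wild type C57BL/6J mice were sequenced at PND2 and 4 months, 3 libraries per age, each a pool. The authors prepared stranded 50 nt paired-end libraries, trimmed and filtered the reads, aligned them to mm10 with TopHat2 (2.1.0 in the submitters' notes, beside R 3.2.2) and used easyRNASeq for counts on Ensembl annotation. What they deposited is RPKM for genes and for exons, with the authors' low-read filter and floor not yet applied. Whether strand was used in counting was not stated. The library totals inferred from the RPKM values were 23810507 to 38994657 reads. Reads recovered from RPKM, length and total were whole for 100% of values (within 0.01 read).

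Groups came from the sample labels. Genes with at least 0.1 RPKM in 3 libraries were tested, 2-sided, on the log2(RPKM + 0.1) scale by limma 3.58.1 under R 4.3.3 (lmFit, then eBayes allowing for a mean-variance trend), without a replicate block, and Benjamini-Hochberg adjustment over 25903 genes. Folds on this scale understate the change of low genes. Tested on simulated data for this comparison over 26459 genes, the fit called 97% of 3-fold and 100% of 8-fold planted changes with 34 false calls. The planted genes had a mean of at least 1 RPKM, and all genes had the same spread beyond counting error. Lower or more variable genes were therefore not covered. Errors after log2 fold changes are standard errors, those after RPKM values standard deviations. Replicate numbers did not pair the libraries (same-number correlations 0.04, -0.06 and -0.16).

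Values are given in every library for called members with a mean of at least 1 RPKM at either age, for the TIMPs and for members with at least 10 RPKM, and partner genes are named if called with at least 5 RPKM. The members and lists were chosen with earlier results of these data known. Mmp10 against Mmp3, Adamts2, Mmp24, Mmp19, Timp3 and Timp4 were looked at by exon after their values were seen. Exon counts use distinct annotated exons with a mean of at least 1 RPKM at either age, alternative ends counted separately. Identical sequence was sought as 47-base matches between GENCODE transcripts. Promoters are RefSeq's. Limits from counts cover counting error only. Alternatives were another pseudocount, filter, test, scaling or floor, a replicate block, and each library left out. Python 3.11.15 was used with pandas 2.3.3, numpy 2.4.6 and matplotlib 3.10.9.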

Additional observations from a re-analysis of the deposited data

How the results depend on the processing

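Over 17 alternatives the number of members called higher ran from 8 to 11 and lower from 10 to 15, except with the unequal-variance test per gene (5 and 6, with 11 partner genes called in place of 20). Of the 22 called members, 11 were called under every alternative that tested them. A pseudocount of 1 ended the calls of Mmp8, Mmp13, Mmp16 and Mmp27, and a filter of 1 RPKM removed Mmp8, Mmp12 and Mmp27. A floor at 10 reads, as the study used, ended the Mmp8 call. Scaling by the median ratio moved the all-gene median from -0.14 to -0.02 (log2) and the share of higher calls from 50.7% to 59.4%. It ended the Mmp16 call and added Adamts1. Voom on recovered reads added Adamts3, Adamts18 and Timp4. With the replicate block 10 members were called higher and 12 lower, the same 22 genes. The sign turned for 7 members that were not called under any alternative. Leaving out 1 library, their log2 fold changes ran from -0.092 to 0.19 (Adamts10), -0.20 to 0.10 (Adamts6), -0.20 to 0.12 (Adamts15), -0.21 to 0.0536 (Adamtsl1), -0.0058 to 0.13 (Adamtsl4), -0.22 to 0.0675 (Mmp23) and -0.47 to 0.19 (Timp1). Under median scaling Adamts6 was at 0.10, Adamtsl1 at 0.0145, Mmp23 at 0.0122 and Timp1 at 0.0098, and Adamts6 was at 0.0036 with voom and 0.0459 with quantile normalization. The TIMP to MMP ratio was 0.301 and 1.08 at PND2 and 4 months without Timp2, 1.33 and 3.52 without Mmp2, and 0.429 and 1.17 over MMP and ADAMTS together. The causes of these changes were not tested. Between 0 and 3 reads in a library a gene cannot be ranked, which holds for Mmp1a, Mmp1b, Mmp7, Mmp20 and Mmp21.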
